A study of Mus musculus with 4 samples.

Results

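The 8 mouse GIMAP genes (GTPases of immunity-associated proteins), Gimap1 and Gimap3 to Gimap9, were followed in RNA-seq of T cells made with and without dimethyl fumarate (DMF). They were taken by gene name from a table of 54532 genes, and all 8 passed the filter on low values, a mean of at least 1 FPKM over the libraries, as did 12166 genes in all. The cells were naive CD4+ T cells from the spleen of wild-type (WT) mice, kept for 3 days in a culture set to turn them into T follicular helper (Tfh) cells. DMF, an electrophilic ester of fumaric acid and a known activator of Nrf2, was present in the DMF group and absent in the control group. Each group held 2 libraries of total RNA, and no library came from a mouse with a mutated gene. The labels used here give no dose of DMF and no age of the mice, and they do not say whether the replicates came from separate mice or cultures, so the p-values below measure only the spread between these libraries, which may be technical. Values are FPKM, in which the reads of a gene are scaled to its length and to the size of the library.

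GIMAP proteins share a GTP-binding domain of the AIG1 type, sit mostly on the membranes of organelles such as mitochondria, lysosomes and the endoplasmic reticulum, and are made chiefly by lymphocytes. They are known for keeping lymphocytes alive: loss of Gimap5 in rats and mice, or of Gimap1 in mice, leaves the animals short of peripheral T cells. Their genes stand side by side, which makes them a natural set for asking whether neighbours respond alike. The question of the comparison is how the GIMAP transcripts of cells kept under Tfh conditions differ when DMF is in the culture.

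Both DMF libraries held less Gimap7, Gimap6, Gimap3 and Gimap4 RNA than either control library. Gimap7 was furthest apart, at 7.59 ± 0.468 FPKM in DMF and 26.1 ± 8.04 FPKM in control libraries (SD, n = 2 libraries each). Gimap9 was also below both controls in both DMF libraries, though by a narrow margin to one of them. For Gimap1, Gimap5 and Gimap8 the libraries of the groups overlapped. Thus in 5 of 8 members the DMF pair stood below the control pair without overlap, and in 0 above it, where 26.8% of all tested genes stood below and 26.4% above. No member passed limma's test, for which the adjusted p over all genes had to be under 0.05; Gimap7 came nearest, with an adjusted p of 0.231. Of the 12166 tested genes 0 passed, or 0%. At an unadjusted p under 0.05 limma took 1150 genes, with 6.31% of those tested lower in DMF and 3.14% higher; 3 of the 8 members, Gimap3, Gimap6 and Gimap7, were among the lower ones and 0 among the higher. limma's voom on reads also called 0 genes, with 1168 genes and 4 members at an unadjusted p under 0.05. The median log2 difference of the 8 members, DMF minus control, was -0.55, against -0.01 over all tested genes; it was 0.05 when libraries were scaled to an equal T cell gene level, a setting described further on.

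**Figure D1:**
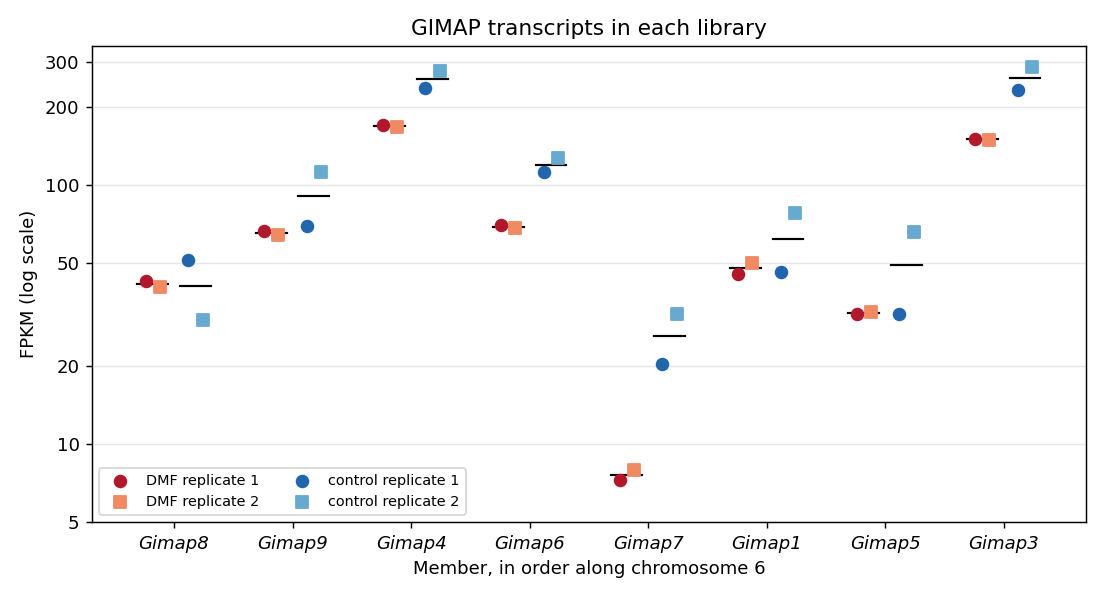
FPKM (log axis) of each GIMAP member in the 2 DMF libraries (red) and the 2 control libraries (blue), with the genes in their order along chromosome 6; black bars are group means. Gimap4, Gimap6, Gimap7 and Gimap3 lie below the controls in each DMF library, and the DMF pair lies closer together than the control pair for every member.

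The genes form one cluster of 123.6 kb on chromosome 6, at 48647234 to 48770851 in GRCm38. From the lower coordinate upwards the order is Gimap8, Gimap9, Gimap4, Gimap6, Gimap7, Gimap1, Gimap5 and Gimap3. Gimap6 and Gimap3 lie on the minus strand and the other 6 on the plus strand. The gaps between neighbouring members run from 2401 bases, between Gimap1 and Gimap5, to 15253 bases, between Gimap8 and Gimap9. All 8 are protein coding, with 2 to 6 annotated transcripts each, and their lengths in the table run from 1642 bases for Gimap9 to 4149 bases for Gimap5.

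Gimap7 (ENSMUSG00000043931, 48718621 to 48724636) encodes a GTPase whose human counterpart pairs with another GIMAP protein and speeds its hydrolysis of GTP. It had 7.26 and 7.92 FPKM in the DMF libraries, against 20.4 and 31.8 FPKM in the controls. Both DMF libraries were low and both controls high, with no overlap, although the controls themselves lay far apart. The mean in control cultures was 3.44 times that in DMF cultures, and the log2 difference was -1.63 ± 0.27 (SE), with a 95% interval of -2.34 to -0.92 before adjustment over genes. It was the least abundant member in both groups, and also the one with the fewest reads, 309 and 344 in the DMF libraries and 842 and 1030 in the controls. Counting error was at most 5.69% of a value there, far below the distance between the groups.

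Gimap6 (ENSMUSG00000047867, 48701582 to 48708225) encodes a cytosolic GTPase that binds the GABARAP-like proteins of autophagy. It had 70.1 and 68.4 FPKM in the DMF libraries, against 113 and 128 FPKM in the controls. The log2 difference was -0.78 ± 0.21 (SE; limma adjusted p = 0.407), and the controls lay close to each other. Gimap3 (ENSMUSG00000039264, 48764464 to 48770851), a close relative of Gimap5 whose protein is found on mitochondria, had 151.6 and 150.2 FPKM in the DMF libraries, against 233 and 288 FPKM in the controls. Its groups were clearly separate, at a log2 difference of -0.78 ± 0.26 (SE; limma adjusted p = 0.503).

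Gimap4 (ENSMUSG00000054435, 48684549 to 48692060), which speeds the death of T cells once apoptosis has begun, had 171.6 and 168.4 FPKM in the DMF libraries, against 238 and 277 FPKM in the controls. The DMF values were nearly equal and lay below both controls, at a log2 difference of -0.59 ± 0.25 (SE; limma adjusted p = 0.549). Gimap9 (ENSMUSG00000051124, 48676129 to 48679114) had 66.9 and 64.2 FPKM in the DMF libraries, against 69.5 and 113 FPKM in the controls. Control replicate 1 was almost level with the DMF libraries and only control replicate 2 stood well above them, so the difference of -0.43 ± 0.30 on the log2 scale (SE) came mainly from that library.

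Gimap1 (ENSMUSG00000090019, 48739054 to 48743795), which mature T and B cells need to survive, had 45.6 and 50.3 FPKM in the DMF libraries, against 46.3 and 78.0 FPKM in the controls. Control replicate 1 lay between the DMF libraries. Gimap5 (ENSMUSG00000043505, 48746197 to 48754210) encodes a protein of the lysosome membrane whose loss gives lymphopenia. It had 32.0 and 32.6 FPKM in the DMF libraries, against 31.8 and 66.4 FPKM in the controls. Here control replicate 1 lay just below both DMF libraries, and control replicate 2 well above them. The 95% intervals of the log2 differences, -1.16 to 0.52 for Gimap1 and -1.55 to 0.55 for Gimap5, take in a fall of 1 log2 unit as well as no difference. Gimap8 (ENSMUSG00000064262, 48647234 to 48660875), whose protein carries several GTP-binding domains in a row, had 42.7 and 40.6 FPKM in the DMF libraries, against 51.7 and 30.3 FPKM in the controls. It was the one member for which control replicate 2 was the lowest library, and its difference was 0.07 ± 0.31 on the log2 scale (SE), with an interval of -0.76 to 0.90.

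Since FPKM is per length, levels of different members can be set side by side, with a limit. Values of control replicate 2 still ran with gene length, as described further on. In DMF cultures the order of mean FPKM was Gimap4, Gimap3, Gimap6, Gimap9, Gimap1, Gimap8, Gimap5 and Gimap7. By the control means Gimap3 and Gimap4 changed places, at 260.5 and 258 FPKM, which did not differ beyond the spread of the controls. Gimap8 and Gimap5 also changed places by the means, but only control replicate 2 had that order, at 30.3 and 66.4 FPKM. In control replicate 1 they had 51.7 and 31.8 FPKM, the same order as in DMF cultures. In both DMF libraries Gimap4 was above Gimap3, at means of 170.0 ± 2.26 and 150.9 ± 1.04 FPKM (SD, n = 2 libraries each). Gimap6 and Gimap9, at 69.2 ± 1.21 and 65.6 ± 1.98 FPKM, lay close together in DMF cultures, while Gimap6 was above Gimap9 in each control too. Summed over the 8 members, the family stood at 588 and 582 FPKM in the DMF libraries, against 804 and 1012 FPKM in the controls. In reads the family took 0.161% and 0.160% of the DMF libraries, against 0.213% and 0.226% of the controls, and the groups were separate on that scale too.

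Ratios between members of one library are free of any scaling between libraries, though not of a trend with gene length. Gimap7 came to 1.25% and 1.38% of the summed FPKM of the other 7 members in the DMF libraries, against 2.61% and 3.25% in the controls. Against its neighbour Gimap1 the ratio was 0.159 and 0.157 in the DMF libraries, against 0.441 and 0.408 in the controls, and here the controls nearly coincided. Against Gimap8 it was 0.170 and 0.195 in the DMF libraries and 0.395 and 1.05 in the controls, which lay far apart. Set against each of the other 7 members in turn, Gimap7 had the DMF pair below the control pair in 7 of 7 ratios. All 7 share the values of Gimap7, the member with the largest difference, so they are not separate results. With 2 libraries a group the exact permutation test (two-sided) cannot go below 0.333, which is the value it gave for the ratio to the other 7. Gimap7 was singled out for these ratios after its values were seen. By contrast Gimap4 held 29.2% and 28.9% of the family's FPKM in the DMF libraries, against 29.6% and 27.4% in the controls. Gimap3 held 25.8% in each DMF library, against 29.0% and 28.4% in the controls.

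The promoters of the members with the largest differences, Gimap7, Gimap6, Gimap3 and Gimap4, are printed here, followed by those of Gimap9 and Gimap8, the pair that holds a match to the antioxidant response element bound by Nrf2. Each is 300 bases in GRCm38.p6 from RefSeq, 5′ to 3′ on the gene's strand, from 250 bases before the start site to 50 after it. Capitals mark matches on either strand to the letters searched: TGTTTAC for FOXO factors, CACCC for KLF factors, TGTGGT for RUNX factors, CTTTGA for TCF and LEF factors, TTCNNNGAA for STAT factors and TGACNNNGC for the antioxidant response element.
Gimap7, chr6:48718371-48718670, plus strand: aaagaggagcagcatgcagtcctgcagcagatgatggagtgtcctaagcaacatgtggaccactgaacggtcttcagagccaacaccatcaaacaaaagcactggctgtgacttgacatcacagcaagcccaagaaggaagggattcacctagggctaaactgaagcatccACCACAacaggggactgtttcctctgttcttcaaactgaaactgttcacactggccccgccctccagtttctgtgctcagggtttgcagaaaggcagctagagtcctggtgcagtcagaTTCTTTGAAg
Gimap6, chr6:48708195-48708494, minus strand: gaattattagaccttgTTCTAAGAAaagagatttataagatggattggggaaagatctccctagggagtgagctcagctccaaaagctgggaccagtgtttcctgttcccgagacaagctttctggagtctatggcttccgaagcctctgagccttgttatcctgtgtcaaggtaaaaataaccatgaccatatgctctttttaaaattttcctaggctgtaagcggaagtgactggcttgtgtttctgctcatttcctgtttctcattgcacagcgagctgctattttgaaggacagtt
Gimap3, chr6:48770802-48771101, minus strand: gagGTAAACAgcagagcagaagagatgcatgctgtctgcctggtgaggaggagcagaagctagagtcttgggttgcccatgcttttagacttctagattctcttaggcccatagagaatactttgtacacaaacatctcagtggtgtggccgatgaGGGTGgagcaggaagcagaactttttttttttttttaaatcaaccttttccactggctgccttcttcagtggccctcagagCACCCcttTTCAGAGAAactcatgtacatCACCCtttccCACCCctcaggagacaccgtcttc
Gimap4, chr6:48684328-48684627, plus strand: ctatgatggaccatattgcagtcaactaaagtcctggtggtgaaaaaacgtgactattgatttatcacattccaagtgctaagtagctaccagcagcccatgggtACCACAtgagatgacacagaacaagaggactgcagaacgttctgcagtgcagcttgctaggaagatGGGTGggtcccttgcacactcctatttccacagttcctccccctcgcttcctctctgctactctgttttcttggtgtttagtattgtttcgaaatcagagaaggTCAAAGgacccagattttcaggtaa
Gimap9, chr6:48675885-48676184, plus strand: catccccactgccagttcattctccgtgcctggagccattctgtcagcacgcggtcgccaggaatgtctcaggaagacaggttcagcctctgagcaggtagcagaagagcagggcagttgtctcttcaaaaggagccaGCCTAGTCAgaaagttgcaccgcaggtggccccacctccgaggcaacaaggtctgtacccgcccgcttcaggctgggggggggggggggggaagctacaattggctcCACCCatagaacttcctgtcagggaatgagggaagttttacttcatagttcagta
Gimap8, chr6:48646984-48647283, plus strand: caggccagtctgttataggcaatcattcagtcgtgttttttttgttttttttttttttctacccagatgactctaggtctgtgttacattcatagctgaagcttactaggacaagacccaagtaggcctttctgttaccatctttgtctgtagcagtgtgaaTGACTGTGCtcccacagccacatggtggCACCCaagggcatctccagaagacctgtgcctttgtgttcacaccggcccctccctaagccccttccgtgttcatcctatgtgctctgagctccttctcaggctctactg

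All 8 members matched the promoter table, with 9 start sites, of which Gimap8 has 2. The STAT letters stand in the promoters of Gimap7, Gimap6 and Gimap3 and in that of the second Gimap8 start, 4 of 9 start sites, while 8.3% of the 32851 promoters in the table hold them. In Gimap7 the match TTCTTTGAA begins 40 bases after the start site and overlaps the match to the TCF and LEF letters. In Gimap3 the match TTCAGAGAA begins 5 bases before the start site, at offset -5, and in Gimap6 the match TTCTAAGAA begins at offset -234. The FOXO letters stand in Gimap3 (GTAAACA on the printed strand), and 3.65% of all promoters hold them. RUNX letters stand in Gimap1, Gimap4 and Gimap7, where 16.8% of all promoters hold them, and TCF and LEF letters in Gimap4 and Gimap7, where 5257 of the 32851 promoters do. The antioxidant response element letters stand in Gimap9 and at both starts of Gimap8, which share bases, against 12.4% of all promoters. KLF letters, the shortest searched, stand in 6 of the 9 start sites, against 57.5% of all promoters. These matches describe the letters in the windows and carry no statement on binding.

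Genes around the cluster were read from the same fit. Within 500 kb on either side, outside the cluster, 16 of 47 genes passed the filter, and their median log2 difference was -0.17. In 6 of these the DMF pair stood below the control pair, and in 2 above, beside 26.8% and 26.4% of all tested genes. The highest mean FPKM among them was 21.7, below the mean of every member but Gimap7. Their log2 differences ran from -0.51 to 1.27, so none was as low as Gimap7, Gimap6, Gimap3 or Gimap4, while the upper end, at Gm43980, lay farther from 0 than any member but Gimap7. The nearest tested genes on the far side of Gimap3, Tmem176b and Tmem176a, which encode membrane proteins, differed by -0.28 ± 0.37 and -0.39 ± 0.25 on the log2 scale (SE).

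**Figure D2:**
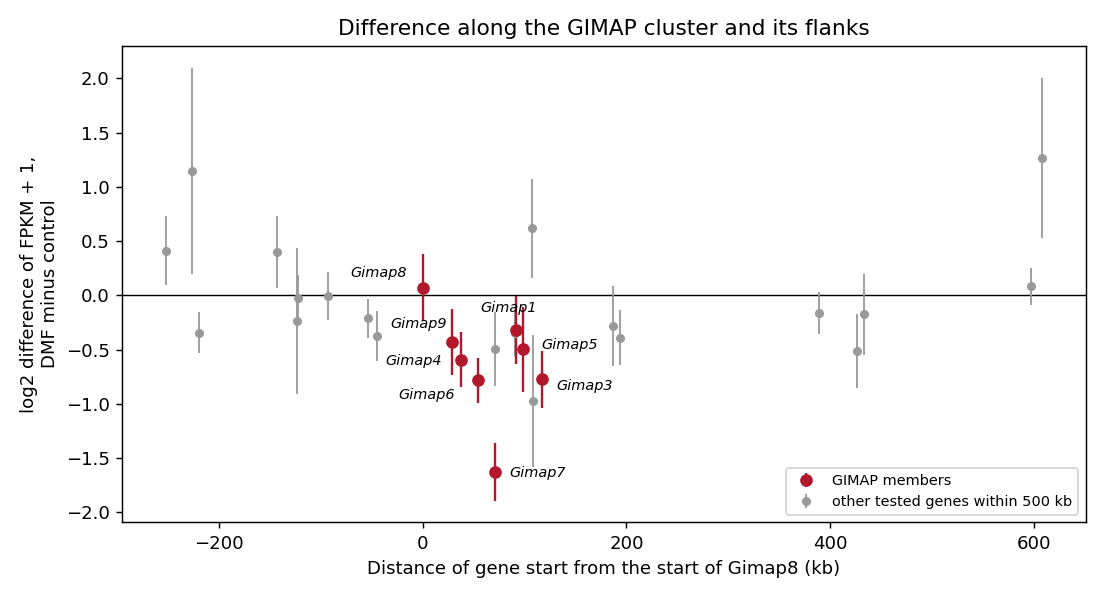
Log2 difference of FPKM + 1, DMF minus control, with its SE, by distance of the gene start from the start of Gimap8 in kb; red points are GIMAP members, grey points the other tested genes inside the cluster or within 500 kb of it. Gimap7 is the lowest point at -1.63 and Gimap8 the one member above 0, at 0.07.

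Inside the cluster 4 further genes were tested. Gimap1os, a transcript from the strand opposite Gimap1, had 2.36 and 2.78 FPKM in the DMF libraries, against 3.11 and 4.01 FPKM in the controls. Gm28053, whose transcripts span Gimap7 to Gimap5, had 0.773 and 1.95 FPKM in the DMF libraries, against 2.68 and 1.81 FPKM in the controls, with overlap. Of the long intergenic RNAs between Gimap5 and Gimap3, which overlap each other, 4833403J16Rik differed by -0.97 ± 0.61 and Gm44226 by 0.62 ± 0.45 on the log2 scale (SE). Reads can be shared among these genes. Of the 100-base words in Gimap1 transcripts, 28.3% also occur in Gimap1os on the other strand, so without a stated use of strand in counting the values of Gimap1 and Gimap1os are uncertain. For Gimap3 1.65% of such words also occur in Gimap5, and for Gimap5 0.966% occur in Gimap3. For Gimap4, Gimap6, Gimap7, Gimap8 and Gimap9 the share of 100-base words found in any other gene was 0%. With 50-base words that share was 35.5% for Gimap1, 8.15% for Gimap3, 6.84% for Gimap5, 1.39% for Gimap7 and 0.17% for Gimap6. It stayed at 0% for Gimap4, Gimap8 and Gimap9.

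The members depend to different degrees on control replicate 2, the library farthest from the rest. The SD over genes of the log2 difference was 0.32 between the DMF libraries and 0.74 between the controls. Its values also ran with gene length, apart from the shortest genes: the median of control replicate 2 minus the mean of the other 3 libraries was 0.75 on the log2 scale in class 2 of 10 equal classes of tested genes by length and -0.63 in class 10, the longest, with class 1, the shortest, at -0.04. The members lie in classes 3 to 6, whose medians run from 0.61 to 0.08. Gimap7 had a value of 1.49 in this measure, where its class had a median of 0.39, and Gimap5 had 1.03, where its class had 0.08. Gimap8, in the same class as Gimap5, had -0.55. The other 3 libraries include the DMF pair, so this measure also holds any difference between the groups. In control replicates 1 and 2 alone, Gimap7 had 20.4 and 31.8 FPKM and Gimap5 had 31.8 and 66.4 FPKM. By these values the controls lay relatively farther apart for Gimap5 than for Gimap7. With the length trend taken out of each library the median of the members was -0.40, and Gimap7 differed by -1.42, Gimap6 by -0.71, Gimap3 by -0.59, Gimap5 by -0.48, Gimap4 by -0.31, Gimap1 by -0.19, Gimap9 by -0.13 and Gimap8 by 0.12. Under quantile normalization, which gives every library the same distribution of values, Gimap7 differed by -1.56, Gimap6 by -0.45, Gimap3 by -0.26, Gimap5 by -0.24, Gimap9 by -0.09, Gimap4 by -0.06, Gimap1 by -0.02 and Gimap8 by 0.24. Each member that was lower in DMF in the main fit thus came closer to 0 in both settings, and Gimap7 remained the lowest.

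With control replicate 1 as the only control, 4 members passed, all lower in DMF, while 8.28% of all tested genes passed. They were Gimap3 (-0.62, limma adjusted p = 0.0198), Gimap6 (-0.69, adjusted p = 0.0198), Gimap7 (-1.32, adjusted p = 0.022) and Gimap4 (-0.48, adjusted p = 0.0242). Gimap1 and Gimap5 then differed by 0.05 and 0.02, and Gimap8 by -0.31. With control replicate 2 as the only control, 7 members passed lower and Gimap8 passed higher, at 0.45, but 61% of all tested genes passed too. Leaving out a DMF library gave 0 members, with 0.0658% (without replicate 1) and 0.0493% (without replicate 2) of all tested genes passing, and a fit with the replicate number as a block gave 1 member, Gimap7, with 4.54%. Where 1 control is left, it is assumed to vary like the DMF pair, and a lone DMF library like the controls. The direction of Gimap8, Gimap1 and Gimap5 thus differed between the controls, and that of Gimap9, Gimap4, Gimap6, Gimap7 and Gimap3 did not.

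**Figure D3:**
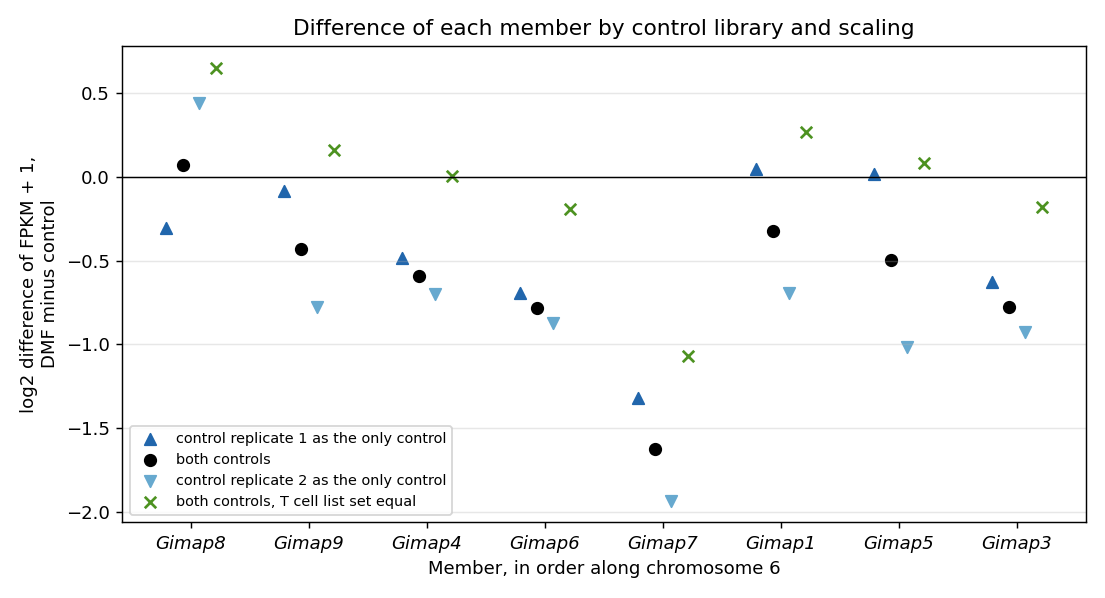
Log2 difference of FPKM + 1, DMF minus control, for each member with both controls (black circles), with control replicate 1 as the only control (dark blue, pointing up), with control replicate 2 as the only control (light blue, pointing down), and with both controls after the T cell list was set equal across libraries (green crosses). Gimap7 stays between -1.93 and -1.07 in all 4, while Gimap8, Gimap1 and Gimap5 take either sign with the choice of control, and Gimap9 and Gimap4 are above 0, at 0.16 and 0.01, when the T cell list is set equal.

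T cell genes were checked because the family's RNA comes chiefly from lymphocytes, and in bulk RNA fewer cells of a type and less RNA per cell cannot be told apart. The 14 T cell markers were all detected and summed to 2073 and 2072 FPKM in the DMF libraries, against 2274 and 3094 FPKM in the controls. Cd3e, a chain of the T cell receptor complex, had 47.3 and 46.0 FPKM in the DMF libraries, against 48.2 and 57.3 FPKM in the controls, and Cd4 had 102.9 and 100.3 FPKM in the DMF libraries, against 127.8 and 104.6 FPKM in the controls. Of the 14, 10 had the DMF pair below the control pair and 0 above, beside 26.8% and 26.4% of all tested genes. The median log2 difference of the list was -0.33. Thy1, a surface protein of T cells, stood far from the rest of the list, at 5.44 and 5.11 FPKM in the DMF libraries, against 64.4 and 95.5 FPKM in the controls. Cd2, an adhesion receptor, had 57.9 and 59.4 FPKM in the DMF libraries, against 135.1 and 245.6 FPKM in the controls.

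Set against T cell genes, the family as a whole gave no single direction, and Gimap7 was lower against most of them. The summed FPKM of the family divided by that of the T cell list was 0.284 and 0.281 in the DMF libraries, against 0.354 and 0.327 in the controls. Cd5 and Cd6, surface receptors that differed by -0.03 and -0.15 on the log2 scale, made up 48.1% and 48.3% of that list sum in the DMF libraries, against 43.1% and 36.3% in the controls. Without them the ratio was 0.546 and 0.544 in the DMF libraries, against 0.622 and 0.513 in the controls, and the groups overlapped. Divided by each of the 14 markers alone, the family sum had the DMF pair below the control pair for 7, overlapping for 4 and above for 3. Per Cd3e it was 12.4 and 12.7 in the DMF libraries, against 16.7 and 17.7 in the controls, while per Cd3g, another chain of the receptor complex, it was 14.4 and 14.3 in the DMF libraries, against 14.5 and 10.2 in the controls. Gimap7 had the DMF pair below the control pair against 12 of the 14 markers, overlapped for Cd2 and was above for Thy1. Gimap6 and Gimap3 were below against 8 each and Gimap4 against 7, and these members were above against 2, 3 and 3, in that order. The other members leaned the other way. Gimap9, Gimap5, Gimap8 and Gimap1 were below against 4, 3, 1 and 0 markers, and above against 5, 5, 6 and 5. Such counts were not made for genes outside the family, so how unusual they are was not tested. The ratios to single markers and without Cd5 and Cd6 were added after the values were seen. Another scaling, which sets the median of the T cell list equal in every library, moved the median of all tested genes to 0.49 and that of the members to 0.05. Under it Gimap4 differed by 0.01 and Gimap7 by -1.07, with Gimap6 and Gimap3 at -0.19 and -0.18.

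Markers of other cells were low beside these. The 10 B cell markers, of a lymphocyte that also makes GIMAP RNA, summed to 29.5 and 29.4 FPKM in the DMF libraries, against 12.4 and 15.6 FPKM in the controls, the opposite direction to the family. Of the 7 tested, 6 had the DMF pair above the control pair and 0 below, with Pax5, Blk and Cd79a among the 6. Of all tested genes 26.4% stood above and 26.8% below. The 8 markers of CD8 T and NK cells summed to 3.03 and 2.75 FPKM in the DMF libraries, against 13.5 and 22.2 FPKM in the controls. Klrd1, Cd8a and Cd8b1, the 3 tested, lay below both controls, and Ncr1 and Klrb1c were at 0 in all 4 libraries. The 10 myeloid and dendritic cell markers summed to 4.46 and 1.91 FPKM in the DMF libraries, against 5.68 and 9.95 FPKM in the controls, with Cd14, Lyz2 and Fcer1g tested and Clec9a at 0. Of the 8 endothelial markers only Pecam1 and Egfl7 were tested, and Pecam1, an adhesion protein that naive T cells also carry, had 4.34 and 4.24 FPKM in the DMF libraries, against 11.4 and 11.6 FPKM in the controls. None of the 6 erythroid markers passed the filter. The part of these cells in the GIMAP values was not tested.

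Genes that hold T cells in the naive, resting state were read beside the family, since GIMAP RNA is abundant in resting T cells. Of the 20 on the list, 13 had the DMF pair below the control pair and 4 above, beside 26.8% and 26.4% of all tested genes. The median log2 difference of the list was -0.60. None passed limma's test over all genes. S1pr1, a sphingosine 1-phosphate receptor used for exit from lymph nodes, had 8.36 and 6.45 FPKM in the DMF libraries, against 39.5 and 35.5 FPKM in the controls. Il7r, a chain of the interleukin 7 receptor, and Ccr7, the chemokine receptor of lymph node entry, differed by -2.05 and -1.76 on the log2 scale. These 3 were further apart than any GIMAP member, while Bach2, Foxp1, Foxo3 and Runx1, all transcription factors, were the 4 above both controls.

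**Figure D4:**
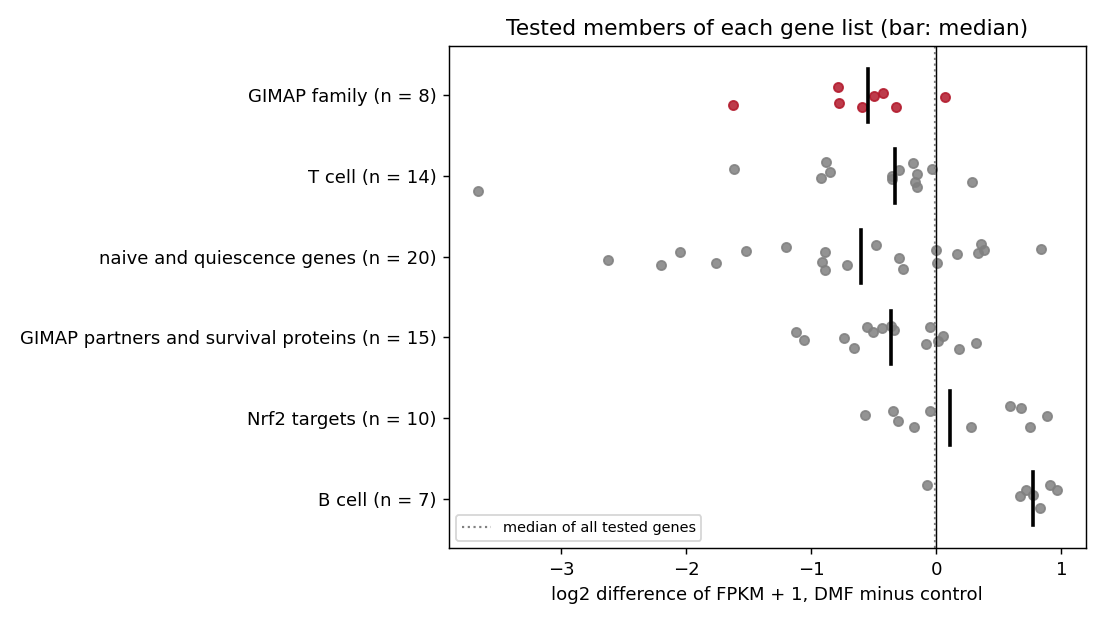
Log2 difference of FPKM + 1, DMF minus control, of each tested gene (points) in 6 gene lists, with the list median (black bar) and the median of all tested genes (dotted line at -0.01). The GIMAP median lies at -0.55, between those of the T cell list at -0.33 and the naive and quiescence list at -0.60, and the B cell list lies on the other side at 0.77.

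The list of GIMAP partners and survival proteins held 15 genes, all tested, with a median log2 difference of -0.36. In 9 of these the DMF pair stood below the control pair and in 0 above, beside 26.8% and 26.4% of all tested genes. None of the 15 passed over all genes. Bcl2, the survival protein of resting lymphocytes, had 9.86 and 10.3 FPKM in the DMF libraries, against 27.6 and 19.2 FPKM in the controls, with no overlap. Gabarapl2, the autophagy protein that Gimap6 binds, had 18.9 and 18.8 FPKM in the DMF libraries, against 23.2 and 44.1 FPKM in the controls. Gabarap and Map1lc3b, of the same protein family, differed by -1.05 and -0.66 on the log2 scale, again with control replicate 2 the highest library.

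Targets of Nrf2 stood on either side. Of the 14 on the list 10 were tested, with a median log2 difference of 0.11. Of these, 5 had the DMF pair above the control pair and 3 below, beside 26.4% and 26.8% of all tested genes. Gclc, which catalyses the opening step in making glutathione, had 14.3 and 15.4 FPKM in the DMF libraries, against 9.29 and 6.12 FPKM in the controls. Txnrd1, a thioredoxin reductase, Srxn1, a sulfiredoxin, and Hmox1, a heme-degrading enzyme, differed by 0.75, 0.67 and 0.59 on the log2 scale. The 3 below both controls were Taldo1, Pgd and Tkt, at -0.57, -0.35 and -0.18. None of the 10 passed over all genes.

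Likeness to the family was measured over the 4 libraries as the distance between gene-centred log2 values and the median profile of the members. Among protein-coding genes outside the family the 5 nearest were Derl3, Oas1c, Paqr7, Efemp2 and Eef1a1, at distances of 0.102 to 0.109. All but Eef1a1 were low genes. Derl3, Oas1c, Paqr7 and Efemp2 had means of 1.04, 2.47, 2.07 and 1.02 FPKM in the DMF libraries. In the controls their means were 2.28, 4.45, 3.93 and 2.21 FPKM. The 1 added to FPKM shrinks the log2 differences of such genes, so their likeness rests partly on that scale. Eef1a1, the abundant translation elongation factor, had 1572 and 1546 FPKM in the DMF libraries, against 2146 and 2803 FPKM in the controls. Of the members Gimap4 was nearest to that profile at 0.137, and 25 genes outside the family were nearer than it. Gimap7 and Gimap8 lay farthest at 1.01 and 1.05. With 4 libraries many genes share such a profile, so the likeness is a description of these libraries.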

How the data were processed

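Total RNA of the 4 libraries was sequenced on an Illumina instrument, per the labels' protocols. The authors deposited 1 table of FPKM values with gene names, coordinates and lengths; what aligned and counted the reads is not given in the sources used here. Build mm8 and, with no role, edgeR stand in the submitters' processing notes, but 98.26% of the 54409 gene identifiers found in GENCODE M21 have its GRCm38 coordinates, all 8 members included, so positions are given as GRCm38. FPKM times gene length gave whole multiples of 1 step for 100% of values, within 0.01, and so reads per gene: 17134385 and 17516953 in the DMF libraries and 17171199 and 15900118 in the controls. The library sizes implied by the FPKM were 1.07, 1.07, 1.03 and 0.876 times these totals, in that order. Between the DMF libraries chi-square per degree of freedom was 3.61, above counting noise, so they were not merged into 1 sample; this does not show separate cultures.

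limma 3.58.1 in R 4.3.3 (lmFit, eBayes with a trend) was fitted on log2(FPKM + 1), DMF minus control, as a two-sided test with p-values adjusted by Benjamini-Hochberg across 12166 genes (mean FPKM at or over 1) and a threshold of 0.05. This scale understates changes of low genes. Because the deposited unit is FPKM, limma's voom on the whole reads stood in for a count test. The members and lists were chosen with earlier results of these data known. Named genes are the members, tested genes near the cluster, up to 4 genes of smallest p per list and the 5 genes most like the family; others were chosen after their values were seen, and some genes under this rule are not reported here. Words of 50 and 100 bases were compared among GENCODE transcripts. Counting errors cover sampling of reads only, and a gene with 0 reads is compatible with up to 3. A protein comparison was planned and is not given here.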

Additional observations from a re-analysis of the deposited data

How the results depend on the processing

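The median of the members stayed negative under 16 of 17 alternatives. It was -0.163 under quantile normalization and reversed to 0.046 with the T cell list set equal; it ran from -0.825 to -0.395 with each library left out, and was -0.382 with scaling to read totals, added after seeing the data. With each library left out, 0 to 8 members and 6 to 7420 of all genes passed; the 8 without control replicate 1 and the 4 without control replicate 2 are the exceptions to 0. The replicate block gave 1 member, Gimap7 (adjusted p = 0.000274), and 552 genes (4.54%). The labels do not tie replicate numbers to a shared mouse or day, so the numbers are not taken as pairs. The deviations of same-numbered libraries correlated at -0.02 over genes. That is 1 comparison, in which the controls lay farther apart (SD 0.74) than the DMF libraries (SD 0.32), so it does not decide on pairing. Under the other 12 alternatives 0 members and 0 genes passed. Gimap3, Gimap6 and Gimap7 were lower in DMF under 17 of 17 alternatives, but most of these could not change the sign. Changing the filter, the variance model or the block does not alter a member's difference, nor the median. Where both DMF libraries lie below both controls, another pseudocount or a library left out cannot change the sign either. With the T cell list set equal Gimap9 was at 0.163, Gimap4 at 0.00515, Gimap1 at 0.269 and Gimap5 at 0.0868; without control replicate 2 Gimap8 was at -0.306, Gimap1 at 0.0494 and Gimap5 at 0.0209. Without control replicate 1 Gimap8 was at 0.445, Gimap1 at -0.692 and Gimap5 at -1.02. The cause was not tested. Scaling to read totals moved the median of all genes to 0.124. Each member had at least 309 reads in every library; which limit weighs most was not tested.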
